A study of Mus musculus with 4 samples.

Results

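Collagen alpha chain genes were examined in Tbx3 mutant and wild type control mouse embryos at e10.5, in a part of the heart called the atrioventricular canal (AVC). The AVC is the segment between the embryonic atria and ventricles in which the endocardial cushions form. A chain was included where the array files name a non-control probe Col, a number, the letter a and a number. This gave 40 chains with 78 probes, of 27671 genes with 41174 probes in all. A probe was kept where either channel rose well above background on 3 or more of the 4 arrays, which left 36 chains with 56 probes. Col4a3, Col10a1, Col19a1 and Col28a1 did not pass, and no ratio is given for them. The chains fell into 8 fibrillar, 8 basement membrane, 7 cartilage-type and 17 other chains, of which 8, 7, 6 and 15 passed.

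Mutant embryos carried a Tbx3 genotype that the series title calls hypomorphic, meaning of reduced function, and no label says how the allele was built. Control embryos were wild type, and both genotypes shared a mixed background of Sv129 and C57Bl6 in equal parts. Each of the 8 pools held AVC tissue from 5 hearts, and no allele or treatment beyond the Tbx3 genotype is named. On each of 4 arrays, 1 mutant pool labelled with the red dye Cy5 was hybridised beside 1 control pool labelled with the green dye Cy3. All 4 arrays had this dye orientation, so for any single gene, dye and genotype cannot be told apart. Ratios are log2 of mutant over control, levels are normalized log2 intensities, and errors are SD over arrays. The labels call the 4 pairs biological replicates, and a p-value here measures the spread between these pairs.

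Collagens are the main fibrous proteins of the extracellular matrix, and each molecule winds 3 alpha chains into a helix that needs glycine at a fixed interval along each chain. Fibrillar collagens assemble into tension-bearing fibrils, type IV collagen forms the sheet-like network of basement membranes, and types II, IX and XI make the fibrils of cartilage. In the embryonic heart, cushion mesenchyme secretes a matrix that later remodels into valve leaflets, and several cartilage genes are also expressed in developing valves. The arrays measure transcripts of bulk tissue, in which fewer cells of a type and less RNA per cell cannot be told apart.

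The probes are 60-base oligonucleotides, and those on which the results turn are given 5′ to 3′ as the files list them, in the sense of the transcript. The Col9a3 probe is the only one for that gene and carries the lowest adjusted p of any chain on 4 arrays. It maps to chr2:181116761-181117343 (plus strand, mouse build mm7), a span of 583 bases for 60 bases of probe, so it joins separate pieces of the genome. The Col22a1 probe shown is the dimmer of a pair that differ in size of response, at chr15:71951550-71951609 (minus strand). The Col1a1 probe at chr11:95059777-95059836 and the Col3a1 probe at chr1:45558167-45558226 (both plus strand) are second probes of chains that were far lower on array 2 than elsewhere. Each of these has at least 1 reading frame without a stop codon. No annotation of build mm7 was used here, so exons and untranslated regions are not named. No capitals are used in these 4 sequences.
Col9a3: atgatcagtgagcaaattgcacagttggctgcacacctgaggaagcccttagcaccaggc
Col22a1, second probe: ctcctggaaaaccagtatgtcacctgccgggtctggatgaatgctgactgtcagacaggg
Col1a1, second probe: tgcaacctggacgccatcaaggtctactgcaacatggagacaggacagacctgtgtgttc
Col3a1, second probe: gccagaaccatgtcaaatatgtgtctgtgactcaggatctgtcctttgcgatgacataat

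Some probes lie within the repeat that encodes the collagen helix, where a glycine codon (GGN) recurs every 9 bases. A run of at least 4 GGN triplets spaced 9 bases apart, on the probe's own strand, was found in 3 of 78 collagen probes (3.85%), against 13 of 41174 probes in all (0.032%). The other collagen probes hold no run of that length. Shorter runs were not counted, and where those probes lie relative to the repeat was not established. The second Col5a1 probe (chr2:27994034-27996457, plus strand) has 6 such triplets and the dim Col5a3 probe (chr9:20655471-20656200, minus strand) has 7, given in capitals. They are shown because sequence of this kind recurs along a chain and between chains.
Col5a1, second probe: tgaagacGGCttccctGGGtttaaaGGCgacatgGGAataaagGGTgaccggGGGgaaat
Col5a3, second probe: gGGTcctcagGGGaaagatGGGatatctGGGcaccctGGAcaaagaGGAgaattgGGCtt

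The pair of Col2a1 probes past the filter (chr15:97979257-97979316 and chr15:97979237-97979296, minus strand) overlap by 40 bases, given in capitals. Their readings therefore share most of their sequence and are not separate evidence for the gene.
Col2a1, brighter probe: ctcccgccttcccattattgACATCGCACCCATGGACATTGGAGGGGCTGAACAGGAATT
Col2a1, second probe: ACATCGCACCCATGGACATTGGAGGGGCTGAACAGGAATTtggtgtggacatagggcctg

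Tbx3 itself, a T-box transcription repressor of the AVC and conduction system, checked the labels. Its level was 12.68, 12.84, 12.68 and 12.77 in mutant pools 1 to 4, against 14.03, 14.24, 14.11 and 13.98 in control pools 1 to 4, so all mutant pools lay below all controls. The log2 ratio was -1.35 ± 0.10 (SD, n = 4; limma adjusted p = 0.0454), and no other of 19091 genes passed an adjusted p of 0.05. That call needed arrays 1, 3 and 4, since omitting one of these gave Tbx3 an adjusted p of 0.346, 0.602 and 0.510 in the limma fit. Array 2 stood apart from the others over all genes: its log2 ratios had an SD of 0.487, against 0.259 to 0.295, and their correlation across genes with arrays 1, 3 and 4 was 0.07, -0.06 and -0.02. Genes are not independent replicates. Every marker of myocardium (5 genes), endocardium (4 genes), epicardium (4 genes) and cushion mesenchyme (10 genes) was well above background in all 4 control pools.

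Ratios of collagen chains lay below 0 more often than above it, but no chain passed the threshold on 4 arrays. Of 36 chains 32 had a mean ratio below 0, where 49.7% of all genes did. The median of the chain means was -0.28, against 0.0012 over all genes. With 4 arrays, 0 chains had an adjusted p under 0.05 (0.00524% of all genes did), and Col9a3 alone was under 0.1, lower (0.136% of all genes in either direction, 0.0681% lower). At an unadjusted p under 0.05, 8 chains were lower and 1 was higher, where 7.45% of all genes were lower and 7.1% higher. On every one of the 4 arrays 15 chains were lower (12.6% of all genes) and 1 was higher (12.3% of all genes).

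Array 2 set the size of many of these means. On it 15 of 36 chains had a log2 ratio of -1 or lower, where 3.55% of all genes did, and none had 1 or higher, where 0.466% of all genes did. On arrays 1, 3 and 4 only Col22a1 reached -1, where 0.136%, 0.194% and 0.189% of all genes did. Without array 2 the median of the chain means was -0.12 over 27 chains below 0 and 9 above, where 47.6% of all genes were below 0. Col22a1 and Col9a3 then passed an adjusted p of 0.05, both lower (0.33% of all genes were lower at that limit). At an adjusted p under 0.1, 7 chains were lower (3.67% of all genes) and 1, Col4a4, was higher (4.41% of all genes). At an unadjusted p under 0.05, 12 were lower (11.2% of all genes) and 1 higher (12% of all genes). On each of arrays 1, 3 and 4, 16 chains were lower (22.9% of all genes) and 2 higher (23.6% of all genes). The 7 lower chains at an adjusted p under 0.1 were Col1a1, Col5a1, Col5a2, Col6a3, Col9a3, Col13a1 and Col22a1.

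**Figure D1:**
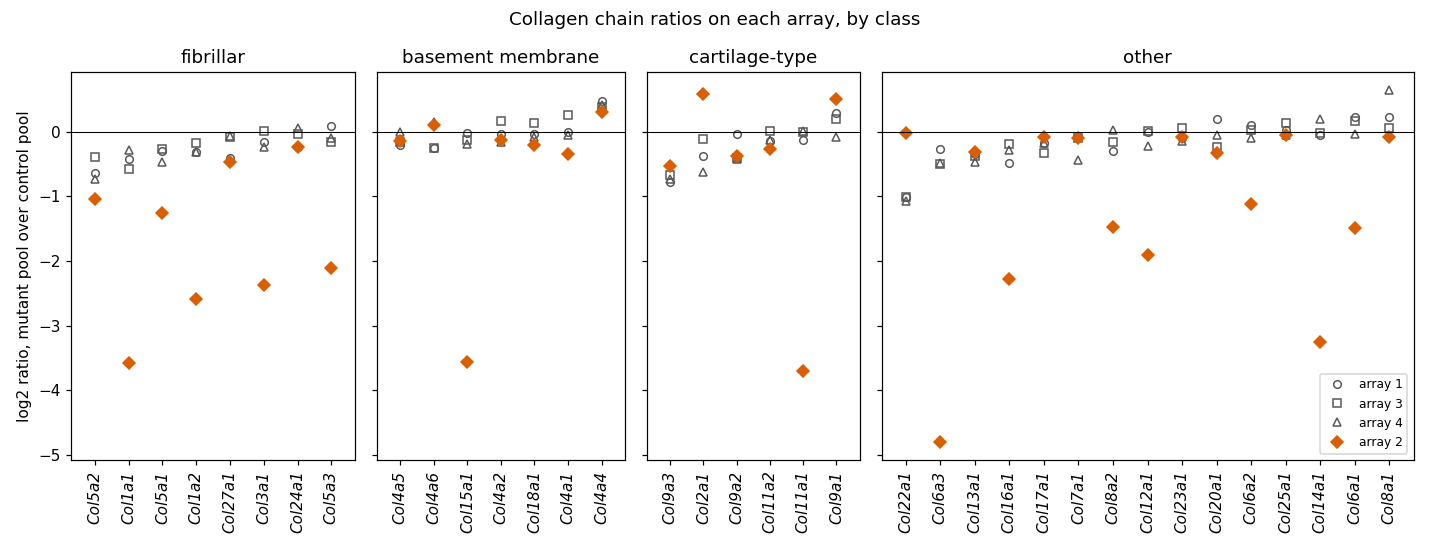
Log2 ratio of mutant over control pool (vertical axis) for the 36 chains past the filter, in 4 classes, with arrays 1, 3 and 4 as open grey symbols and array 2 as orange diamonds. Array 2 reaches -4.80 at Col6a3, while no open symbol lies below -1.07.

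The fibrillar chains build the load-bearing fibrils of connective tissue, and all 8 had a mean below 0. Their median was -0.63 on 4 arrays and -0.23 without array 2. Types II and XI, which also form fibrils, are counted with the cartilage-type chains here. On array 2, 6 of the 8 were at -1 or lower. Col24a1 and Col27a1, the pair in this class outside types I, III and V, were at -0.24 and -0.47. Col24a1 was dim, above background in 3 of the 4 control pools, and the other passing Col27a1 probes read 0.07 and 0.04 on array 2. None of the 8 passed on 4 arrays. Without array 2, Col5a2, Col1a1 and Col5a1 were under an adjusted p of 0.1 and none was under 0.05.

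Col1a1 encodes the pro-alpha1 chain of type I collagen, the fibril-former of tendon, bone and skin. Its level was 14.84, 14.55, 14.40 and 14.59 in mutant pools 1 to 4, against 15.28, 18.13, 14.98 and 14.87 in control pools 1 to 4. Control pool 2 stood far above every other pool, and the lowest control pool was just above the highest mutant pool. The ratios on arrays 1 to 4 were -0.43, -3.58, -0.58 and -0.29, with a mean of -1.22 ± 1.58 (n = 4; limma adjusted p = 0.415). Without array 2 the mean was -0.43 ± 0.15 (n = 3; limma adjusted p = 0.0731). The second probe printed above read -0.10, -1.98, -0.38 and -0.31 on the 4 arrays, lower on each. The third Col1a1 probe, above background in 1 control pool, read -1.19 on array 2 and a mean of 0.03 without it.

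Col1a2, the partner chain of type I collagen, followed the same arrangement. Its level was 14.04, 14.61, 13.85 and 13.88 in mutant pools 1 to 4, against 14.36, 17.19, 14.03 and 14.20 in control pools 1 to 4. Without pool 2 the groups overlapped slightly, because mutant pool 1 was above control pool 3. The mean ratio was -0.85 ± 1.16 (n = 4; limma adjusted p = 0.439) and without array 2 it was -0.27 ± 0.08 (n = 3; limma adjusted p = 0.104).

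Col3a1 encodes the homotrimeric type III collagen of vessel walls and other distensible tissue. Its level was 14.82, 14.80, 14.84 and 14.76 in mutant pools 1 to 4, against 14.98, 17.16, 14.84 and 15.00 in control pools 1 to 4. Apart from control pool 2, the pools lay within a narrow band. The mean was -0.69 ± 1.12 on 4 arrays (limma adjusted p = 0.514) and -0.13 ± 0.13 on arrays 1, 3 and 4 (n = 3; limma adjusted p = 0.360). Its second probe, printed above, read -0.63 on array 2 and a mean of 0.14 ± 0.20 on the other 3 arrays, of opposite sign to the brighter probe.

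Type V collagen co-assembles with type I and limits fibril diameter. Among the 6 fibrillar chains at -1 or lower on array 2, Col5a2 differed least between that array and the rest, with -0.64, -1.04, -0.39 and -0.73 on arrays 1 to 4. Its mean was -0.70 ± 0.27 on 4 arrays (limma adjusted p = 0.139) and -0.59 ± 0.18 without array 2 (n = 3; limma adjusted p = 0.0585). Its level was 11.29, 12.18, 11.55 and 11.32 in mutant pools 1 to 4, against 11.93, 13.22, 11.94 and 12.05 in control pools 1 to 4. Pool 2 was the highest of its genotype in both, and mutant pool 2 lay above 3 of the control pools.

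Col5a1 had ratios of -0.29, -1.26, -0.27 and -0.48 on arrays 1 to 4, with every mutant pool (13.31 to 13.56) below every control pool (13.79 to 14.82). Its mean was -0.57 ± 0.46 on 4 arrays (limma adjusted p = 0.266) and -0.35 ± 0.11 without array 2 (n = 3; limma adjusted p = 0.0833). The second probe, which lies in the glycine repeat, read 0.35, -0.39, 0.12 and 0.55, so the probes of this gene disagreed in sign on 3 arrays. Col5a3, the chain of type V found mainly in muscle and developing tissue, had 0.08, -2.11, -0.16 and -0.09, with a mean of -0.06 ± 0.13 without array 2.

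Basement membrane chains were close to 0 as a class, except on array 2 for Col15a1. The median of the 7 class members was -0.05, with 6 means below 0, and it became 0.38 with median centring in place of loess, which raised the median of all genes to 0.23. Without array 2 it was -0.02, with 4 means below 0 and 3 above. Col4a1 and Col4a2, the chains of the ubiquitous type IV network, lie side by side and are transcribed in opposite directions from a shared region. In the RefSeq table (GRCm38.p6), the windows around the starts of the pair overlap by 78 bases. Col4a1 read 0.00, -0.35, 0.26 and -0.05 on arrays 1 to 4 and Col4a2 read -0.04, -0.13, 0.16 and -0.17, with means of -0.04 ± 0.25 and -0.04 ± 0.15 that changed sign with median centring.

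Col18a1, whose C-terminal fragment is endostatin, was the brightest probe in the class and read -0.05 ± 0.14 (n = 4), with a sign that also changed with median centring. Its level was 15.71, 15.44, 15.76 and 15.60 in mutant pools 1 to 4, against 15.75, 15.64, 15.62 and 15.69 in control pools 1 to 4, so the groups overlapped. Col15a1, the close relative of Col18a1, was dim in every pool but those numbered 2. Its level was 6.45, 7.68, 6.30 and 6.48 in mutant pools 1 to 4, against 6.47, 11.25, 6.42 and 6.67 in control pools 1 to 4. Control pool 2 was the highest of the 8 pools and mutant pool 2 the next. The probe was above background in 3 of the 4 control pools, so no fold is given. Array 2 gave a ratio of -3.57, and the other 3 gave -0.02, -0.13 and -0.19 (limma adjusted p = 0.543 on 4 arrays).

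Col4a4, a chain of the specialised type IV network of kidney and inner ear, was the only chain higher on all 4 arrays. Its ratios were 0.48, 0.30, 0.38 and 0.41, with every mutant pool (9.18 to 9.44) above every control pool (8.80 to 9.03). The mean was 0.39 ± 0.07 (n = 4; limma adjusted p = 0.134), and 0.42 ± 0.05 without array 2 (n = 3; limma adjusted p = 0.0575). A second probe past the filter read -0.34, -0.81, -0.05 and 0.02, so the direction of Col4a4 rests on the brighter probe. Averaged over both probes, the mean was 0.05. Col4a5 and Col4a6, neighbours on the X chromosome, read -0.13 ± 0.09 and -0.06 ± 0.22. Another passing Col4a6 probe read -0.52, 0.67, -0.49 and -0.41 on arrays 1 to 4, with a mean of -0.47 ± 0.06 without array 2. None of the 3 probes of Col4a3, the partner of Col4a4, passed the filter, though 2 of them were above background in control pool 2.

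Among cartilage-type chains Col9a3 had the lowest adjusted p on 4 arrays and Col11a1 the lowest mean, and the class median was -0.22 on 4 arrays and -0.19 without array 2. Of the 6 measured chains 5 had a mean below 0 in both settings. Type IX collagen decorates type II fibrils and is a trimer of the products of Col9a1, Col9a2 and Col9a3. Col9a3 was lower on every array, with ratios of -0.77, -0.53, -0.67 and -0.74. Its level was 9.78, 10.12, 10.47 and 10.11 in mutant pools 1 to 4, against 10.55, 10.65, 11.14 and 10.84 in control pools 1 to 4. The groups did not overlap, although the highest mutant pool, pool 3, came within 0.1 of the lowest control pool, pool 1. The mean was -0.68 ± 0.11 (n = 4; limma adjusted p = 0.0990), which is 0.625 times the control level, and without array 2 it was -0.73 ± 0.05 (n = 3; limma adjusted p = 0.0350). The gene has a single probe, so no second reading was possible.

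The other type IX chains did not share its size or, for Col9a1, its direction. Col9a2 read -0.04, -0.37, -0.41 and -0.43 on arrays 1 to 4, lower on each, with a mean of -0.31 ± 0.19 (limma adjusted p = 0.234). Col9a1 read 0.28, 0.50, 0.19 and -0.09, with a mean of 0.22 ± 0.24 (limma adjusted p = 0.414). No difference between the 3 chains was tested.

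Col2a1, the fibrillar chain of cartilage that is also made in the embryonic heart, had opposite signs on array 2 and on the rest. Its ratios were -0.38, 0.59, -0.11 and -0.62, with a mean of -0.13 ± 0.52 on 4 arrays (limma adjusted p = 0.804) and -0.37 ± 0.26 without array 2 (n = 3; limma adjusted p = 0.138), and median centring turned the 4-array mean to 0.30, as leaving out array 4 turned it to 0.034. Its level was 12.82, 13.51, 12.94 and 12.64 in mutant pools 1 to 4, against 13.19, 12.92, 13.05 and 13.26 in control pools 1 to 4. Mutant pool 2 was the highest of the 8 pools and control pool 2 the lowest control. The overlapping second probe read -0.34, 0.13, -0.11 and -0.57, and on it control pool 2 was the highest control, at 13.24, against 12.89 to 13.07 in the others.

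Col11a1, a nucleating chain of thin fibrils, had the lowest array 2 ratio of its class, -3.71, and lay between -0.12 and 0.01 on the others. Its level was 9.89, 10.27, 10.14 and 10.11 in mutant pools 1 to 4, against 10.02, 13.98, 10.14 and 10.10 in control pools 1 to 4. Control pool 2 was 14.9 times as bright as the mean of the other controls, and the remaining 7 pools overlapped. Col11a2, its partner chain, was at -0.13 ± 0.11 with no such departure. Type XI collagen was thus not uniformly higher in control pool 2.

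Among cartilage markers outside the collagens, Acan, Comp, Matn1, Matn3, Hapln1, Sox5 and Sox6, none of 7 stood at least 1 above the other controls in control pool 2. Their summed log2 level ranged between 13.25 and 13.66 in mutant pools and between 13.34 and 13.58 in control pools. Most of that sum is Hapln1, at 12.90 to 13.35 in mutant pools and 12.96 to 13.22 in control pools. Matn1 was above background in no pool. The list's median ratio was 0.02, -0.03, -0.06 and -0.02 on arrays 1 to 4.

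**Figure D2:**
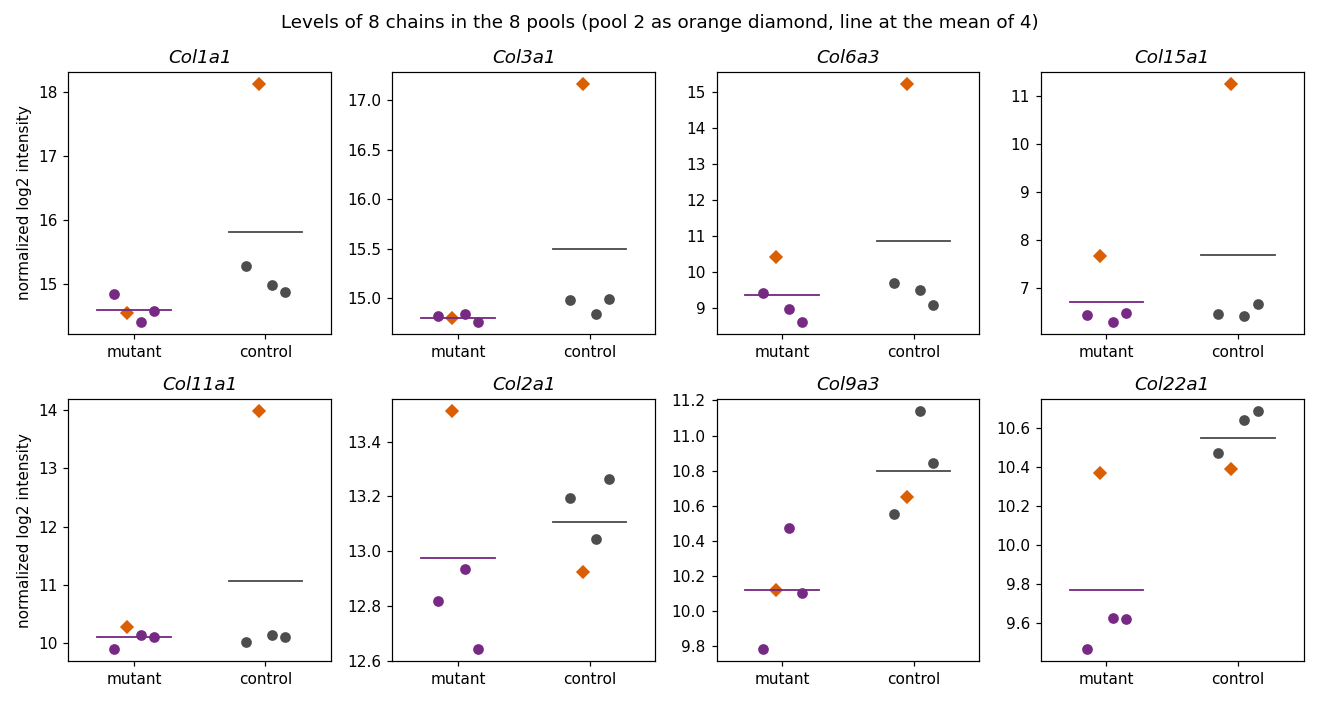
Normalized log2 intensity of 8 chains (vertical axes, each with its own range that does not start at 0) in the 4 mutant and 4 control pools, with pool 2 as an orange diamond and the line at the mean of 4. Col9a3 shows 4 mutant pools below 4 control pools, and Col1a1, Col3a1, Col6a3, Col15a1 and Col11a1 show control pool 2 above all the rest.

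The other chains comprise beaded-filament, fibril-associated, transmembrane and network-forming types, and they held Col6a3, the chain lowest on array 2, and Col22a1, the chain lowest on the other arrays. Their median was -0.29 on 4 arrays, with 13 of 15 below 0, and -0.07 without array 2, with 10 of 15 below 0. On array 2, 7 of the 15 were at -1 or lower.

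Col22a1 is a fibril-associated chain found at tissue junctions such as that of muscle and tendon. Its ratios were -1.01, -0.02, -1.02 and -1.07 on arrays 1 to 4, with a mean of -0.78 ± 0.51 (limma adjusted p = 0.203). Without array 2 the mean was -1.03 ± 0.03 (n = 3; limma adjusted p = 0.0304), or 0.489 times the control level. Its level was 9.46, 10.37, 9.62 and 9.62 in mutant pools 1 to 4, against 10.47, 10.39, 10.64 and 10.69 in control pools 1 to 4. Mutant pool 2, not control pool 2, was the pool that departed from its group, and it still lay just below the lowest control. The second Col22a1 probe, printed above, was lower on every array, at -0.29, -0.26, -0.37 and -0.48, with a mean of -0.35 ± 0.10. Its mean of -0.38 without array 2 is smaller in size than that of the brighter probe, and it shows no departure on array 2.

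Col13a1, a transmembrane collagen of cell-matrix junctions, was lower on all 4 arrays, at -0.35, -0.31, -0.38 and -0.47. Every mutant pool (12.35 to 12.65) lay below every control pool (12.66 to 13.04), with the closest pools almost touching. The mean was -0.38 ± 0.07 (limma adjusted p = 0.137), -0.40 ± 0.06 without array 2 (n = 3; limma adjusted p = 0.0622) and 0.03 with median centring. Its second probe read -0.28, 0.16, -0.21 and -0.27. Across all classes, 5 chains (Col1a1, Col5a1, Col9a3, Col13a1 and Col22a1) had every mutant pool below every control pool, where 5.11% of all genes did, and 1 (Col4a4) had the reverse, where 3.89% did.

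Col6a3 belongs to type VI collagen, which forms beaded filaments around cells, and its 4-array mean was the lowest of all 19091 genes. Its level was 9.42, 10.41, 8.99 and 8.61 in mutant pools 1 to 4, against 9.69, 15.22, 9.49 and 9.09 in control pools 1 to 4. Control pool 2 was 55.5 times as bright as the mean of the other controls, and mutant pool 2 was the highest mutant pool. The ratios were -0.27, -4.80, -0.50 and -0.49, with a mean of -1.51 ± 2.20 (limma adjusted p = 0.460) and of -0.42 ± 0.13 without array 2 (n = 3; limma adjusted p = 0.0728).

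Col6a1 and Col6a2, the neighbouring genes for the other type VI chains, were at -1 or lower on array 2 and on no other array. They read -1.49 and -1.12 there, and their means without array 2 were 0.12 ± 0.14 and 0.01 ± 0.10. A second Col6a2 probe gave -1.23 on array 2 and 0.20 without it. Of the fibril-associated chains, Col14a1 read -3.26 on array 2 and a mean of 0.04 ± 0.13 without it, and Col12a1 read -1.91 and -0.07 ± 0.13. Col12a1 was dim, above background in 3 of the 4 pools of each genotype and at 6.12 to 6.94 outside control pool 2. Its mean without array 2 is therefore no measured lack of change. Col16a1 read -2.28 on array 2 and was lower on the other 3 arrays too, with a mean of -0.32 ± 0.15 without array 2 (limma adjusted p = 0.107). Col8a2, a network-forming chain of Descemet's membrane, read -1.47 on array 2 and -0.14 ± 0.16 without it, while its partner Col8a1 read -0.08 on array 2 and 0.31 ± 0.31 without it. The 5 remaining chains, Col7a1, Col17a1, Col20a1, Col23a1 and Col25a1, had 4-array means between -0.19 and 0.02, and none passed.

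For the 15 chains at -1 or lower on array 2, the level of each channel placed most of the departure in the control pool. Col22a1 and Col2a1 differed, with mutant pool 2 at 0.80 and 0.71 above the mean of the other mutants. Control pool 2 minus the mean of the other controls was -0.21 and -0.24 for them. In control pool 2, 15 of 36 chains were at least 1 above every other control pool, where 2.96% of all genes were, and 0 were at least 1 below (0.0419% of all genes). These were the same 15 chains that had an array 2 ratio of -1 or lower: 6 fibrillar, 1 basement membrane, 1 cartilage-type and 7 other chains. In mutant pool 2 only Col15a1 stood at least 1 above every other mutant pool on its brightest probe, where 0.44% of all genes did. Col6a3 fell just short, at 10.41 against 9.42 in the next mutant pool. The second Col1a1 probe was at 10.68 in mutant pool 2, against 9.03 to 9.38 in the other mutant pools. Over the 15 chains, control pool 2 lay a median of 2.23 above the other controls and mutant pool 2 a median of 0.22 above the other mutants. The mutant pool 2 differences ran from -0.21 to 1.41. Over the remaining 21 chains the medians were -0.05 in control pool 2 and -0.0055 in mutant pool 2. The 15 chains were set apart by control pool 2 itself, so its medians follow from that choice. Levels and ratios come from the same signals, so the match on 15 chains is partly built in. With the 15 chains set aside, 15 of the 21 others had a mean below 0 without array 2, with a median of -0.08.

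**Figure D3:**
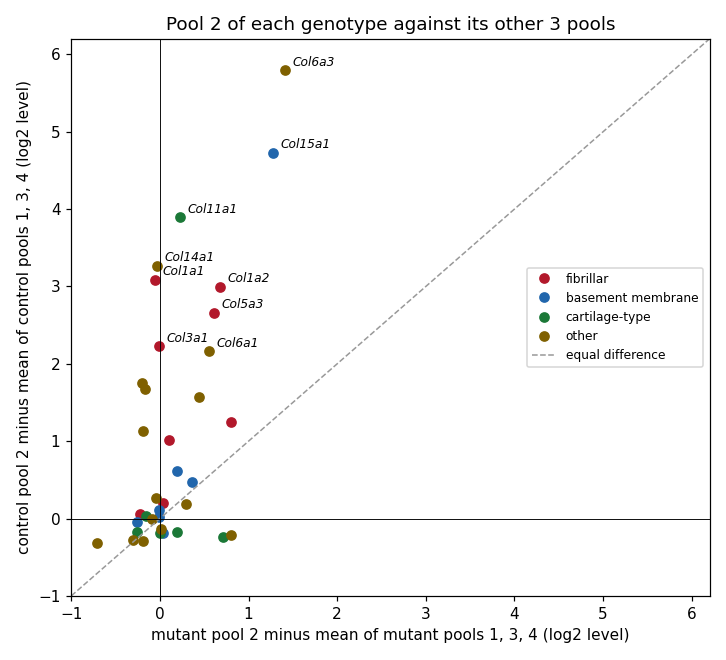
Each point is 1 of 36 chains, coloured by class. The horizontal axis gives mutant pool 2 minus the mean of the other 3 mutant pools and the vertical axis the same difference for control pool 2, in log2 level. Chains with a high control pool 2, up to 5.79 at Col6a3, lie above the line of equal difference.

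Many marker genes of tissue outside the heart were also high in control pool 2. Of 14 uterus and decidua markers, 9 were at least 1 above every other control in control pool 2, where 2.96% of all genes were. Among the 9 were the progesterone receptor Pgr and the homeobox genes Hoxa10 and Hoxa11. The marker lists were chosen with earlier results of these data known. The counts for this list and the leukocyte list are therefore no independent test of that pool. Hoxa11 was at 6.42, 8.61, 7.76 and 6.56 in mutant pools 1 to 4, against 7.01, 13.10, 6.47 and 6.08 in control pools 1 to 4. In control pool 2, 11 of the 14 were above background, and 7 were so in all the other controls. Pgr, Hoxd10 and Hoxd11 were above background in control pool 2 and in no other control. Muc1, Prl3c1 and Areg were not above background in control pool 2. Prl8a2, a decidual prolactin family gene among the 9, was highest in mutant pool 3, at 8.89, 8.74, 11.27 and 7.35 in mutant pools 1 to 4, against 8.52, 10.25, 8.41 and 8.63 in control pools 1 to 4.

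The summed log2 level of that list ranged from 16.79 to 17.05 in mutant pools and was 16.79 in control pool 2, against 16.66 to 16.69 in the other controls, because Cnn1 and Actg2 are bright in every pool. Without these, by a choice made after their values were seen, the sum over 12 genes was 10.77, 11.14, 11.92 and 10.43 in mutant pools 1 to 4, against 10.86, 14.33, 10.74 and 10.74 in control pools 1 to 4. Of 8 leukocyte markers 6 were at least 1 above every other control in control pool 2, with a summed level of 12.95 to 13.36 in mutant pools and 15.30 in control pool 2, against 13.25 to 13.62 in the other controls. Most of that sum is Lyz2, 1 of the 6. Lyz2 was at 12.61 to 13.07 in mutant pools and 15.07 in control pool 2, against 13.01 to 13.43 in the other controls. Laptm5, a leukocyte marker not among the 6, was highest in mutant pool 1, at 9.31, against 8.93 in control pool 2. Of the 10 cushion mesenchyme markers 1, Postn, stood at least 1 above every other control in control pool 2. None did among the myocardial, endocardial, epicardial and cartilage markers. The heart lists were not all level between genotypes. The summed cushion mesenchyme level was 15.91 to 16.21 in mutant pools and 16.78 in control pool 2, against 16.23 to 16.39 in the other controls. Postn weighs in that sum, at 13.07 to 13.51 in mutant pools and 15.33 in control pool 2, against 13.72 to 14.05 in the other controls. No sum without Postn was made. Msx1 and Vcan had mean ratios above 0, at 0.08 and 0.05, and the rest of the list had means below 0. The summed myocardial level was 19.23 to 19.51 in mutant pools and 18.64 in control pool 2, against 18.66 to 18.87 in the other controls. The endocardial and epicardial sums overlapped between genotypes. The part of these cell types in the collagen values was not tested.

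**Figure D4:**
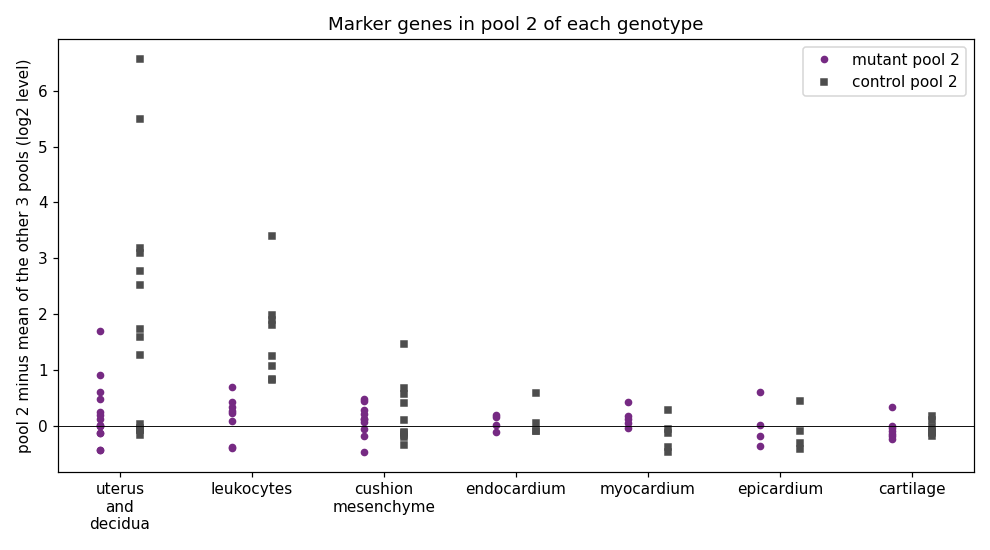
Each point is 1 marker gene. The vertical axis gives pool 2 minus the mean of the other 3 pools of its genotype in log2 level, with purple circles for mutant and grey squares for control pool 2, and the marker lists run along the horizontal axis. In the uterus and decidua list, 9 of 14 genes were at least 1 above every other control in control pool 2. Hoxa11, at the top, was above background in 1 of the other 3 control pools, so its difference is not exact.

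Probes of the same chain gave a further view of how far the ratios hold. Of the chains past the filter 16 had more than 1 passing probe, with 20 probes beside the brightest, and 14 of these 20 had the same sign of mean as the brightest without array 2. The clearest disagreements were Col5a1 (0.34 against -0.35 for the brightest) and Col4a4 (-0.13 against 0.42). Where the brightest probe was at -1 or lower on array 2, all 5 other passing probes were below 0 there and 3 were at -1 or lower. Of the passing chains 20, Col9a3 among them, had 1 passing probe.

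**Figure D5:**
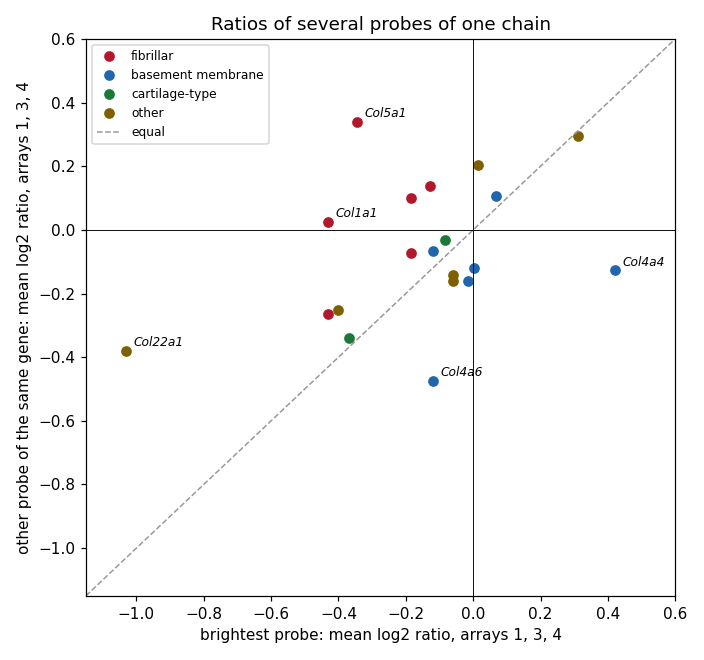
Mean log2 ratio over arrays 1, 3 and 4 for the brightest probe of a chain (horizontal axis) and for each other passing probe of the same chain (vertical axis), 20 points in all, coloured by class. Col22a1 is below 0 on both axes at -1.03 and -0.38, and Col5a1 and Col4a4 lie in quadrants of opposite sign.

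Neighbouring chain genes, which in the RefSeq table have no other protein-coding gene between them, had a mixed record. Col3a1 and Col5a2, on chromosome 1, read -0.13 and -0.59 without array 2. Col6a1 and Col6a2 read 0.12 and 0.01, and Col4a1 and Col4a2 read 0.07 and -0.02. Col4a6 and Col4a5, on the X chromosome, read -0.12 and -0.13 without array 2, and 0.10 and -0.15 on it. The other passing Col4a6 probes read -0.07 and -0.47 without array 2, and 0.23 and 0.67 on it. The members of each pair thus had similar array 2 ratios for Col6a1 and Col6a2 (-1.49 and -1.12), but -2.37 and -1.04 for Col3a1 and Col5a2.

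Genes that make, process, bind or sense collagen had means below 0 more often than above it on 4 arrays. Of 46 listed genes 42 were measured, 29 with a mean below 0, where 49.7% of all genes were, and 13 above. Their median of -0.12 became -0.055 without array 2. None passed an adjusted p of 0.05 on 4 arrays in the limma fit, and at an unadjusted p under 0.05, 8 were lower (7.45% of all genes) and 3 higher (7.1% of all genes). Without array 2, 6 were lower at that unadjusted limit (11.2% of all genes) and 7 higher (12% of all genes). The synthesis and folding genes had a median of -0.0057 over 16 genes, and the processing and crosslinking genes -0.36 over 10, or -0.12 without array 2. Partners of fibrils had a median of -0.48 over 8 genes and receptors of -0.17 over 8, and without array 2 these were -0.03 and 0.03. On array 2, 13 of the 42 were at -1 or lower (3.55% of all genes), and no difference between the roles was tested.

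Prolyl 4-hydroxylase subunit P4ha1, which hydroxylates proline so that the helix is stable, was higher on every array, at 0.71, 0.50, 0.58 and 0.49. Its mean was 0.57 ± 0.10 (limma adjusted p = 0.118), and without array 2 P4ha1 and P4ha2 were the listed genes that passed, both higher (0.681% of all genes were higher at that limit). P4ha2 was lower on the array left out, with ratios of 0.91, -0.51, 1.26 and 0.87 on arrays 1 to 4. Its 4-array mean was 0.63 ± 0.78 (limma adjusted p = 0.403). The crosslinking enzyme gene Loxl2 read 0.91 on array 2 and a mean of 1.13 ± 0.56, and the prolyl 3-hydroxylase gene P3h2 0.25 ± 0.11. Lower means were found for Pcolce2, an enhancer of procollagen C-proteinase, at -0.46 ± 0.08, for the fibril-binding proteoglycan gene Fmod at -0.44 ± 0.08 and for the integrin subunit gene Itgb1 at -0.26 ± 0.10. None of these genes, P4ha2 included, passed on 4 arrays. Adamts2, the procollagen N-proteinase, and the crosslinker Lox read -4.23 and -4.33 on array 2, and were named after their values were seen.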

How the data were processed

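The authors deposited Feature Extraction 9.5.1 scanner output for 4 arrays of 2 colours, as the submitters' processing notes and, per the file headers, the files state. The deposited intensity columns are mean pixel signals with local background, and a second deposited intensity is background-subtracted and dye-normalized. The log10 ratio the authors deposited divides red by green, and the authors' series table equals it to within 5e-07. Arrays shared 1 slide and 1 scan, so neither could be tested as a batch. Median raw signals were 175.1 to 232.5 in mutant and 117.9 to 133.5 in control channels. Array number limits precision.

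Background was corrected with normexp (offset 50) and ratios were normalized within arrays by loess (limma 3.58.1, R 4.3.3), with channel levels after Aquantile. Spots of a probe were averaged, and the brightest of a gene's 28794 passing probes stood for it. Ratios were tested against 0 with lmFit and eBayes, 2-sided, Benjamini-Hochberg adjusted over 19091 genes. The fit was tested on simulated data. Chains named were Tbx3, 5 fixed chains, the brightest 3 per class, those under an adjusted p of 0.1, at 1 or more in size on array 2, or of 1 sign on 4 arrays with a mean of at least 0.3 in size. Col4a5, Col4a6, Col7a1, Col8a1, Col11a2, Col17a1, Col20a1, Col23a1, Col24a1, Col25a1 and Col27a1 were added after their values were seen. Members and lists were chosen with earlier results of these data known. Positions are the files' (mm7), gene names were updated through RefSeq (GRCm38.p6) for genes outside the rule, and no genome was used.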

Additional observations from a re-analysis of the deposited data

Results flagged for a closer look

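Each chain past the filter, and Tbx3, was checked for an array whose log2 ratio lay far from the other 3 by Dixon's test. Of 37 genes checked 15 had such an array. In 13 of the 15 it was array 2, and in 12 of these array 2 was the lowest. The nominal rate of the test is about 1 in 20, but it was not run over all genes, so their share is not known. The chains were measured in the same pools, and array 2 had the widest spread of ratios over all genes, so the nominal rate is no measure of chance here.

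Among fibrillar chains, the far values were all on array 2: -3.58 for Col1a1, -2.58 for Col1a2, -2.37 for Col3a1 and -2.11 for Col5a3. Col15a1 was at -3.57 and Col11a1 at -3.71 on the same array. The other chains low there were Col6a3 at -4.80, Col14a1 at -3.26, Col16a1 at -2.28, Col12a1 at -1.91, Col6a1 at -1.49 and Col6a2 at -1.12.

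Col22a1 departed the other way, with -0.021 on array 2 where the other arrays lay between -1.07 and -1.01. Off array 2, Col9a2 was at -0.037 on array 1, against -0.43 to -0.37 on the rest, and Col7a1, the anchoring fibril collagen, was at -0.44 on array 4, against -0.10 to -0.09.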

How the results depend on the processing

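Over 13 alternative settings, 25 named chains gave 323 values, of which 12 changed sign, in 8 chains, and 14 had an adjusted p under 0.05 in the limma fit where none had one before, 3 of them with a changed sign. Median centring moved the median of all genes to 0.23 and gave 7772 genes past the threshold (570 lower), 9 collagen chains (3 lower) and 18 listed collagen-handling genes. Class medians then were -0.28 for fibrillar, 0.38 for basement membrane, -0.053 for cartilage-type and -0.12 for other chains, and Col18a1, Col4a1, Col4a2, Col2a1 and Col13a1 turned to 0.64, 0.40, 0.38, 0.30 and 0.030. Array weights gave 402 genes, 5 chains and 4 listed genes, with Col4a1 at 0.033. Separate channels with no replicate block gave 191 genes, 0 chains and 1 listed gene. Genes past the threshold numbered 0 with an offset of 16, 3 with the scanner's processed signals and 0 with the mean over probes, where Tbx3 read -1.35, -1.34 and -0.74 (limma adjusted p = 0.0668, 0.0547 and 0.120).

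Leaving out 1 array gave 0 to 193 genes, 0 to 2 chains and 0 to 2 listed genes, all of the higher counts without array 2. Tbx3 then read -1.39 to -1.32 (limma adjusted p = 0.0298 to 0.602), and the median of the other chains -0.40 to -0.071. Means of chains that changed sign spanned -0.11 to 0.0029 for Col18a1, -0.13 to 0.069 for Col4a1, -1.11 to 0.039 for Col14a1, -0.46 to 0.12 for Col6a1 and -0.40 to 0.013 for Col6a2, each positive only when array 2 was left out. Col2a1 (-0.37 to 0.034) was positive only when array 4 was. The causes were not tested. The count of chains at -1 or lower on array 2 was 12 to 15 over the processing settings, and that of chains high in control pool 2 was 12 with processed signals, both chosen after seeing the data. Each array pairs a mutant with a control pool, so the main ratio already carries the block.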
